A study of Mus musculus with 6 samples.

Results

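Accessible chromatin was described around 7 genes of the naive and central T cell program: *Tcf7*, *Lef1*, *Satb1*, *Klf2*, *Ccr7*, *S1pr1* and *Il7r*. An accessible region was counted for a gene when it overlapped the gene body in GENCODE vM21, widened by 10 kb on each side. This gave 138 regions of 104845 in the series, after peaks of both groups that overlapped by at least 1 bp had been joined. The control list held 139 of its 100771 peaks in these windows, and the knockout list 108 of its 94499. The rule takes the genes by name and uses no measured value, but the genes were chosen with earlier results of these data known.

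Splenic Tregs of C57BL/6 mice aged 6 to 12 weeks were profiled by Omni-ATAC-seq, in which a transposase cuts open DNA and the fragments pile up at accessible sites. The control group was CREBfl/fl, which carries the floxed CREB alleles without Foxp3cre, and the other group was Foxp3creCREBfl/fl, in which Cre from a Foxp3-IRES construct deletes CREB in cells that express Foxp3. The labels give 3 libraries per group, and 1 peak list per group was analysed here, so no test across mice was possible and no p-value is given. How the libraries were joined, and by which markers the cells for this assay were sorted, is not given in the sources used here. The genome-wide background was 8.44 fragments in the CREBfl/fl list and 5.09 in the Foxp3creCREBfl/fl list, so the first was 1.66 times as deep. All 6 markers examined for Tregs (*Foxp3*, *Il2ra*, *Ctla4* and *Ikzf2*, with *Cd4* and *Cd3e*, which other CD4+ T cells share) had a region within 1 kb of the start site in both lists, at 40.0 to 116 times the background in CREBfl/fl and 42.7 to 121 times in Foxp3creCREBfl/fl. Of 5 conventional T cell markers (*Il2*, *Cd40lg*, *Dapl1*, *Igfbp4* and *Nsg2*), 4 had a start-site region in CREBfl/fl and all 5 in Foxp3creCREBfl/fl. Their heights ran from 9.59 to 94.1 times the background in CREBfl/fl and from 7.08 to 93.8 times in Foxp3creCREBfl/fl. Of markers of further cell types, start-site regions were listed in both groups for 3 of 5 genes of CD8 and NK cells, 2 of 5 of B cells, 3 of 5 of myeloid cells and 4 of 5 of erythroid cells, some of which T cells also use. The highest of these further markers were 19.8, 21.7, 41.1 and 131 times the background in CREBfl/fl and 17.5, 21.8, 54.1 and 150 times in Foxp3creCREBfl/fl, the last for *Tfrc*. The part of any of these other cells in the results below was not tested. These values come from whole populations, so a difference within each cell and a difference in which cells were present cannot be told apart.

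Naive and central T cells recirculate between blood and lymphoid organs and stay quiescent, and Tregs with the same habits are called central or resting Tregs. The HMG-box factors TCF1 (*Tcf7*) and LEF1 and the chromatin organiser SATB1 are transcription factors of this state. KLF2 holds T cells in quiescence and switches on *S1pr1*, the receptor for sphingosine 1-phosphate that lets T cells leave lymphoid organs. CCR7 brings cells into the T cell zones, and *Il7r* encodes the alpha chain of the IL-7 receptor, a survival receptor that Tregs carry at lower levels than other CD4+ T cells. On activation, and in effector Tregs, this program is turned down.

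All 7 loci were open in both groups. Every gene had a region within 1 kb of its start site in both lists, and 93 of the 138 regions were shared. None of the 93 differed by the strong rule used here, a ratio at least 2-fold and 5 counting SDs from the median of all shared regions, against 0.118% of all shared regions that were lower and 0.0829% that were higher by it. The ratio is the log2 of Foxp3creCREBfl/fl over CREBfl/fl summit pileup, the number of fragments at the summit, after each was divided by its list's genome background. It is given relative to its median over 82006 shared regions, which was 0.15, and its 95% interval covers counting error only. The members' ratios ran from -0.60 to 0.65 with a median of -0.09, and 66 of 93 were below 0. Without the shift by the median, 40 of 93 were below 0, so the side of 0 on which most of them lay depended on this scaling.

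**Figure D1:**
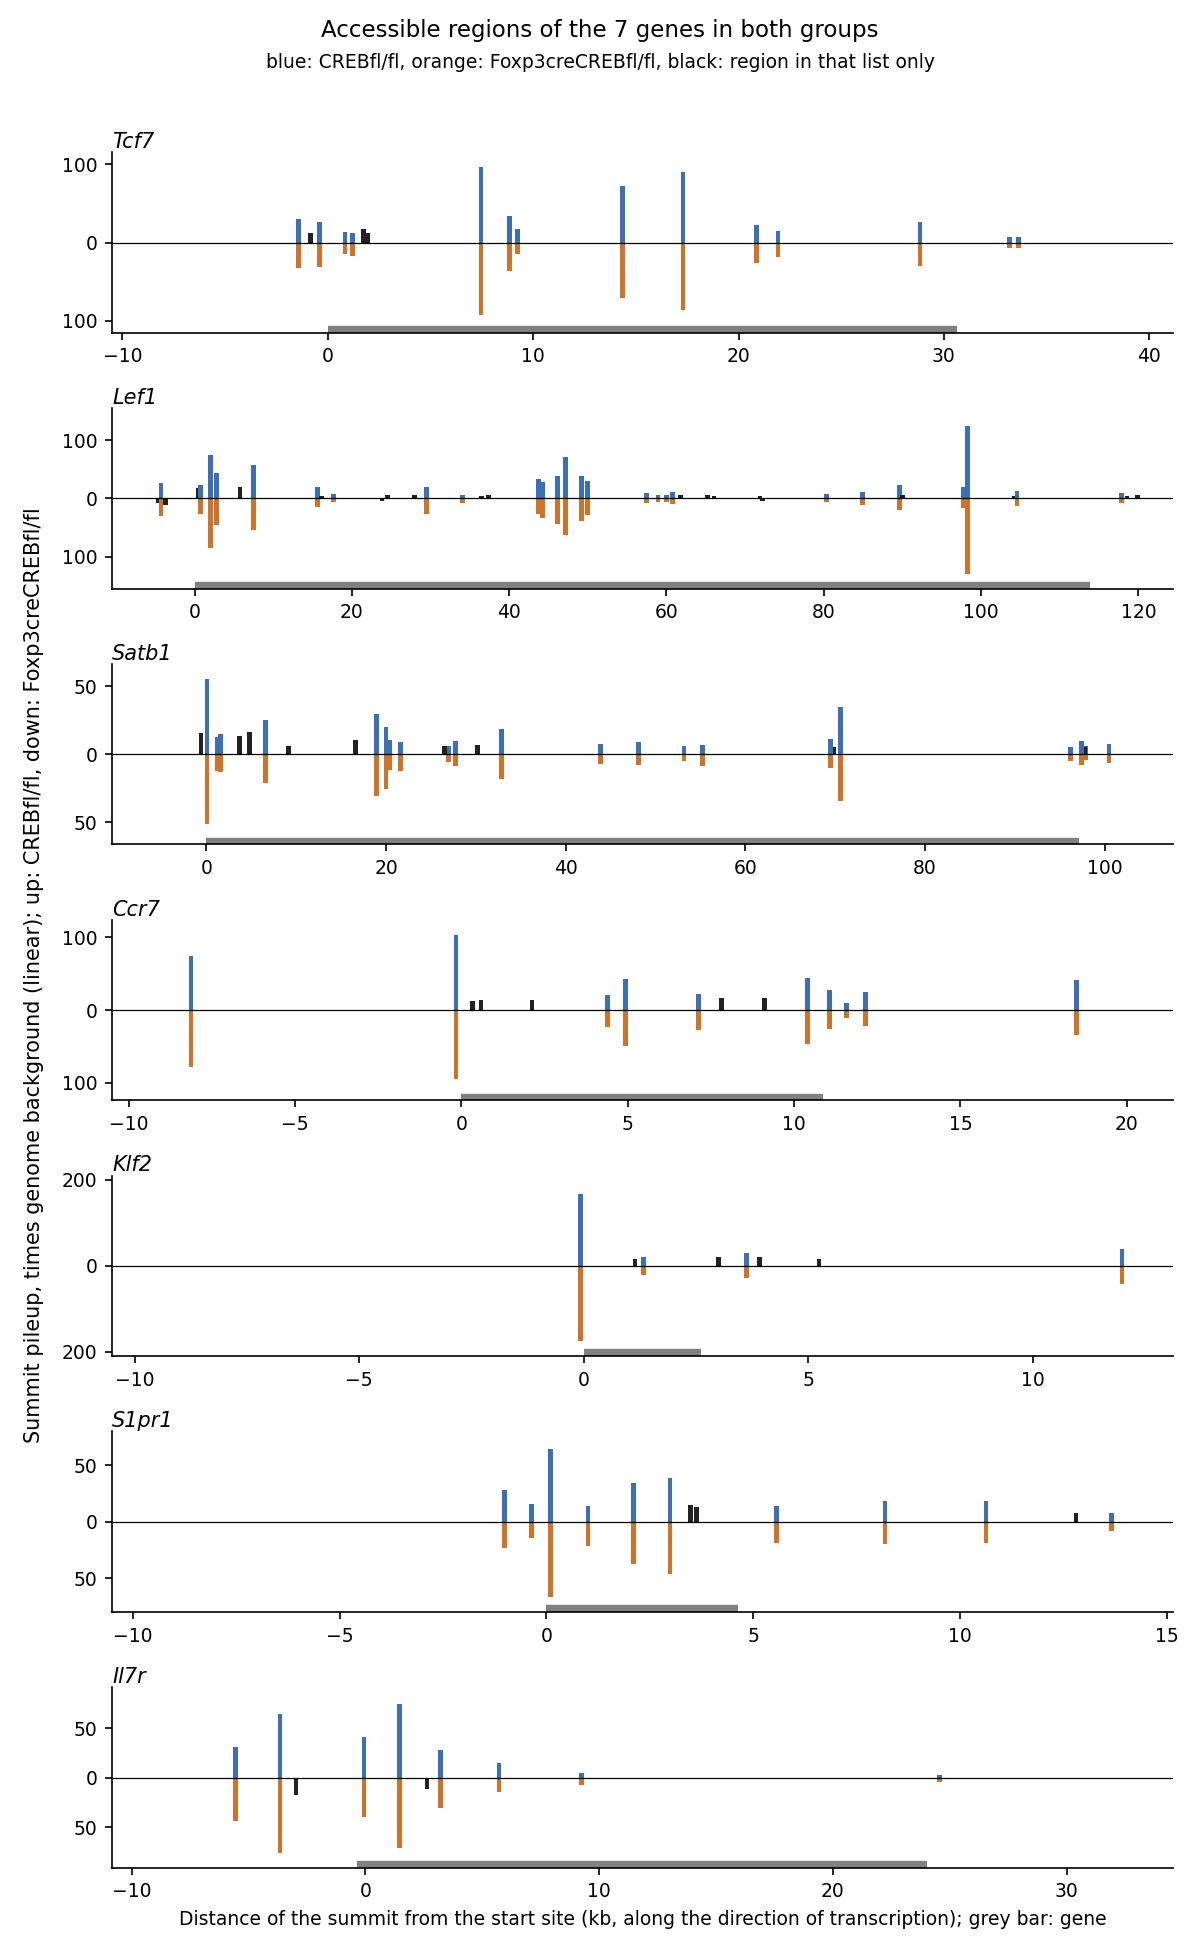
Summit pileup of each region over the genome background of its list (vertical axis, linear, 1 scale per gene), by distance of the summit from the start site in kb (horizontal axis, along transcription). Blue bars upward are CREBfl/fl, orange bars downward Foxp3creCREBfl/fl, black bars are regions of that list alone, and the grey bar is the gene. The tall bars of each gene stand in both groups at similar height, and the black bars are short, as in *Klf2*, where the promoter reached 167 and 175 times the background.

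In detail, the 95% interval lay below 0 in 11 shared regions, or 11.8%, against 7.88% of all shared regions, and above 0 in 2, or 2.15%, against 5.47% of all. Such regions were spread over 6 of the 7 genes. The share below 0 depends on pileup, and the median pileup was 171 in the members and 116 in all shared regions. The 11.8% and 7.88% are therefore not matched. By CREBfl/fl pileup, 0.143% of all shared regions were below 0 under 50, 4.78% at 50 to 100, 9.3% at 100 to 200 and 13.7% at 200 to 500. In these classes the members had 0 of 7, 0 of 21, 1 of 24 and 5 of 29. Among the 12 member regions with a CREBfl/fl pileup of 500 or more, 10 ratios were below 0 and 5 had the interval below 0. Among all 11121 regions that strong, 14.1% had the interval below 0, the SD of the ratio was 0.15, and the 5th to 95th percentiles ran from -0.30 to 0.16. Without the shift, 1 member region had the interval below 0 and 7 had it above 0. With the highest summit of each region taken, every difference among shared regions described below is smaller than 2-fold.

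**Figure D2:**
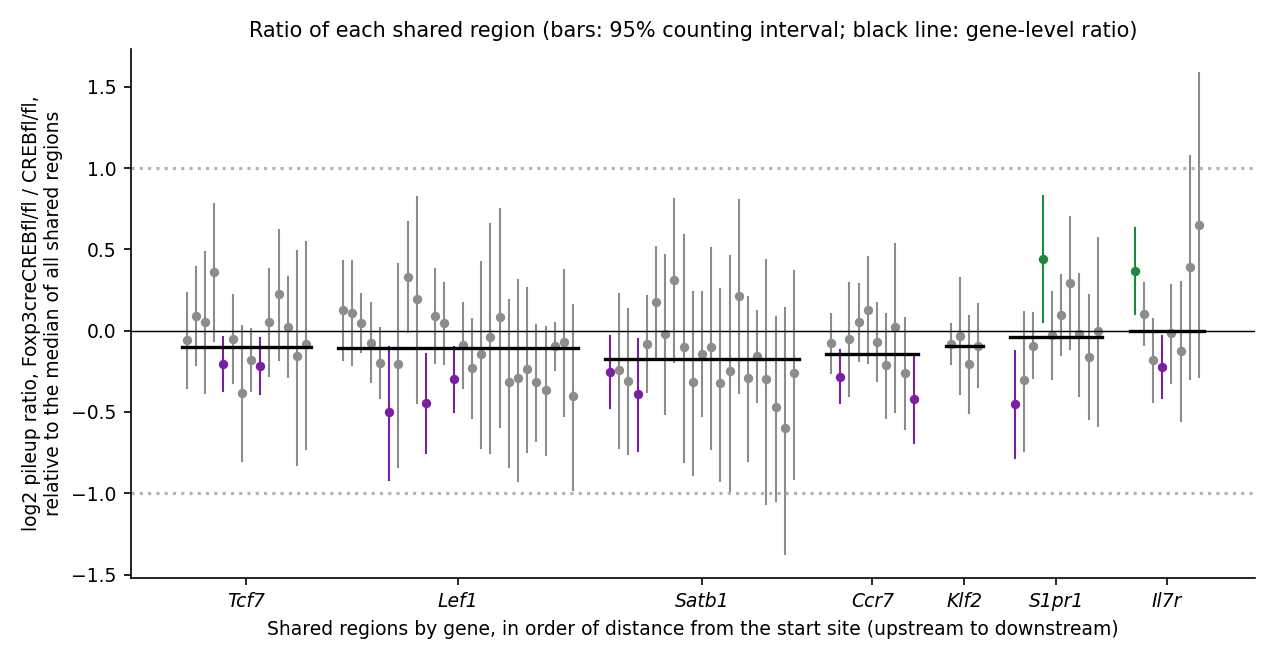
Log2 ratio of summit pileup, Foxp3creCREBfl/fl over CREBfl/fl, relative to the median of all shared regions (vertical axis), for the 93 shared regions ordered by gene and by distance from the start site (horizontal axis). Points are regions, bars their 95% counting intervals, purple or green where the interval lies below or above 0 (11 and 2 regions), black lines the gene-level ratios, and dotted lines mark 2-fold. No point passes the dotted lines.

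*Tcf7* lies on chromosome 11 (chr11:52252371-52283014 in GRCm38, minus strand) and encodes TCF1, which keeps naive and memory T cells responsive. It had 17 regions, of which 14 were shared and 3 were in the CREBfl/fl list alone. Its tallest regions were intronic. The region 7.46 kb inside the gene had a pileup of 811 in CREBfl/fl and 471 in Foxp3creCREBfl/fl, a ratio of -0.20 (95% interval -0.37 to -0.04). The region at 17.29 kb reached 759 and 436 fragments, a ratio of -0.22 (-0.39 to -0.05). The region at 14.34 kb, with 608 and 359, had a ratio of -0.18 (-0.37 to 0.01), so that all 3 tall intronic regions lay on the lower side, the last within its counting error.

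At the *Tcf7* promoter the ratios of the highest summits were near the median. The region that spans the start site, with its summit 0.40 kb upstream, reached 222 and 158 fragments, for a ratio of 0.09 (-0.21 to 0.39), and the one 1.43 kb upstream 257 and 165 and a ratio of -0.06 (-0.35 to 0.23). Their intervals include 0 and overlap those of the intronic regions. The CREBfl/fl list had 2 peaks in the region at the start site and the other list 1, and with all summits added up its ratio was -0.79 (-1.07 to -0.53). Just inside the gene, 1.19 kb from the start, pileups of 105 and 90 gave a ratio of 0.36 (-0.06 to 0.78). Over all 14 shared regions, summed pileups were 3956 and 2466, a gene-level ratio of -0.10 (-0.17 to -0.03). Without the shift this became 0.05, and the interval then included 0. The window also holds the 3' part of *Skp1a*, the long non-coding RNA *Gm26551* and the antisense transcript *A630014C17Rik*, whose regions cannot be told apart from those of *Tcf7*. The promoter sequence is shown because it holds a word bound by TCF1 and LEF1 themselves. The capitals mark it, written ATCAAAG on this strand, and the sequence, like those below, is the plus strand of GRCm38.p6 within 100 bases of the summit.
Tcf7 -0.40 kb, chr11:52283313-52283513: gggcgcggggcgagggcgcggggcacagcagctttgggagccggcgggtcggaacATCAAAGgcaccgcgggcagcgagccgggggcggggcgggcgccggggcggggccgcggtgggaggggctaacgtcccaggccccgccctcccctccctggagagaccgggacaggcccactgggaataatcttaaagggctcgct

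*Lef1* (chr3:131110471-131224356, plus strand) encodes the partner factor of TCF1 with the same DNA-binding domain. With 45 regions it had the most of the 7 genes, in the longest window, and 99.6% of all 21670 protein-coding genes had fewer. In all, 26 regions were shared, 15 were in the CREBfl/fl list alone and 4 in the Foxp3creCREBfl/fl list alone. The tallest stood deep in the gene, at 98.24 kb, with pileups of 1049 and 656, which are 124 and 129 times the background, and a ratio of -0.10 (-0.24 to 0.05). Regions near the start were as even. The one at 2 kb, beside another annotated start site at 2.33 kb, had a ratio, from pileups of 621 and 429, of 0.05 (-0.13 to 0.23), and the one at 0.77 kb had 194 and 140, a ratio of 0.11 (-0.21 to 0.43).

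The *Lef1* regions with an interval below 0 were intronic. The region at 15.64 kb had 161 and 76 fragments at the summit, a ratio of -0.50 (-0.92 to -0.10). In a cluster between 43.68 and 49.93 kb, the first region had 279 and 137, a ratio of -0.45 (-0.75 to -0.15), and the region at 47.17 kb had 592 and 322, a ratio of -0.30 (-0.50 to -0.10). The cluster was uneven: its members at 44.26 and 46.11 kb had ratios of 0.09 (-0.20 to 0.38) and 0.05 (-0.21 to 0.29). Elsewhere in the gene, the region at 29.46 kb reached 163 and 137 fragments, for a ratio of 0.33 (-0.01 to 0.67). Summed over the shared regions, 6329 and 3924 fragments gave a gene-level ratio of -0.11 (-0.17 to -0.05), and 0.04 without the shift.

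CREB binds the palindrome TGACGTCA, called the CRE, and *Lef1* held the only one in any of the 138 regions. It lies in an intron at chr3:131169437-131169444, in a weak shared region 58.93 kb from the start (chr3:131169330-131169508). This region had pileups of 46 and 30, or 5.45 and 5.90 times the background, with a ratio of -0.04 (-0.75 to 0.66), and the interval reaches from well below to well above the median. Its sequence is shown for the CRE, beside that of the uneven cluster's first region. Capitals mark the AP-1 word TGACTCA and then the CRE in the first, and the KLF word GGGTGTGG in the second.
Lef1 +58.93 kb, chr3:131169305-131169505: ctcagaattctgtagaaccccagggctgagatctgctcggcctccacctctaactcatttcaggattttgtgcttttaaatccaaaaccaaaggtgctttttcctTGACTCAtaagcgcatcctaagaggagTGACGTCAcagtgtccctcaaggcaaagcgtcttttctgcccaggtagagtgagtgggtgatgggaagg
Lef1 +43.68 kb, chr3:131154048-131154248: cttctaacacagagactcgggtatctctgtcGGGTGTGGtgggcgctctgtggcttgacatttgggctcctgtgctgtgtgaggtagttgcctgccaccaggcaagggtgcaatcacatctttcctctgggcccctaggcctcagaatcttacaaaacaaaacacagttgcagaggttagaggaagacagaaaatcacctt

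*Satb1* (chr17:51736187-51833290, minus strand) encodes a protein that folds chromatin in thymocytes and T cells. It had 30 regions, 21 shared and 9 in the CREBfl/fl list alone, and among the 7 genes it had the lowest gene-level ratio, -0.17 (-0.26 to -0.08), from 2651 and 1573 fragments. Of the 8828 genes with at least 4 shared regions, 6.41% had a lower ratio. Without the shift it was -0.02 with an interval that included 0. Of its 21 shared regions 18 had a ratio below 0, or 13 without the shift. The tallest, at the start site, had pileups of 467 and 262, which are 55.3 and 51.5 times the background, and a ratio of -0.25 (-0.48 to -0.03). The region at 6.60 kb, at further annotated start sites 6.70 and 6.72 kb from the outermost, had 210 and 107, a ratio of -0.39 (-0.74 to -0.05).

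The remaining tall *Satb1* regions were near the median. At 70.59 kb pileups were 290 and 174 with a ratio of -0.16 (-0.44 to 0.12), and at 18.95 kb they were 250 and 158 with a ratio of -0.08 (-0.38 to 0.21). The lowest ratio of any member was in a weak region just past the 3' end, where pileups of 52 and 23 gave -0.60 (-1.37 to 0.14), an interval that includes 0. At the start site the CREBfl/fl list had 2 peaks where the other list had 1. With all summits added up instead of the highest taken, the ratio of this region was -1.01 (-1.22 to -0.81) and the gene-level ratio -0.37. The CREBfl/fl list alone had a region 0.59 kb upstream of the start, with a pileup of 134, at 2.62 times its local background. Its sequence is shown as a promoter region of 1 list, with a forkhead word, TGTTTAC, in capitals. The region also overlaps the gene model *Gm6934* on the other strand.
Satb1 -0.59 kb, chr17:51833784-51833984: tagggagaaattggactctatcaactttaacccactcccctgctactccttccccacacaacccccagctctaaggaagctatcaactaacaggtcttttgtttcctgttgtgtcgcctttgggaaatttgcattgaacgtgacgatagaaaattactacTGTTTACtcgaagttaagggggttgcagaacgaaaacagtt

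*Klf2* (chr8:72319033-72321656, plus strand) is a short gene, and its promoter was the strongest of all 138 regions. The summit 0.07 kb upstream of the start had pileups of 1410 and 890, or 167 and 175 times the background, and a ratio of -0.08 (-0.21 to 0.04). In the CREBfl/fl list 96% of genes had a lower start-site pileup. The other shared regions lay inside and downstream of the gene: at 11.99 kb pileups were 333 and 209 (ratio -0.09, -0.35 to 0.16), at 3.63 kb 257 and 149 (-0.21, -0.51 to 0.09) and at 1.34 kb 171 and 112 (-0.03, -0.39 to 0.32). All 4 intervals included 0. The gene-level ratio, from 2171 and 1360 fragments, was -0.09 (-0.19 to 0.0044), and 0.06 without the shift.

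Another 4 *Klf2* regions were in the CREBfl/fl list alone, the highest share of the 7 genes at 50% of its 8 CREBfl/fl regions. They lay between 1.15 and 5.24 kb, with pileups of 139 to 180. These are not empty stretches: the local background that the peak caller used there was 60.5 to 102 fragments, against 8.44 genome-wide, and the peaks stood 1.43 to 2.28 times above it. No region was listed in the 10 kb upstream other than the promoter. The promoter sequence up to the base before the annotated start is shown as that of the strongest region; none of the words marked in the other sequences was in it, so it has no capitals.
Klf2 -0.07 kb, chr8:72318866-72319032: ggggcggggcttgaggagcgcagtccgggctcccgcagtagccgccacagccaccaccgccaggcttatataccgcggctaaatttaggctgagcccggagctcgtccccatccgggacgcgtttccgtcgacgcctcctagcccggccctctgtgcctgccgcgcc

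*Ccr7* (chr11:99144196-99155077, minus strand), the receptor for the lymphoid chemokines CCL19 and CCL21, had 15 regions, 10 shared and 5 in the CREBfl/fl list alone. Its promoter, 0.16 kb upstream of the start, had pileups of 873 and 480, which are 103 and 94.3 times the background, and a ratio of -0.28 (-0.45 to -0.12). This was the lowest ratio when the tallest shared start-site region of each of the 7 genes was taken, and it lay just inside the 5th percentile of regions that strong. It was -0.13 (-0.30 to 0.03) without the shift, and -0.05 with the authors' fold over the local background, where *Il7r* was lower at -0.20. With all summits added up, the start-site regions of *Satb1* (-1.01) and *Tcf7* (-0.79) were lower. The region 18.49 kb from the start, downstream of the gene, had a ratio, from pileups of 344 and 172, of -0.42 (-0.69 to -0.15). It was the member region whose interval stayed below 0 without the shift, at -0.27 (-0.54 to -0.00082).

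The rest of the *Ccr7* locus was closer to the median. A tall region 8.13 kb upstream, with pileups of 633 and 401, had a ratio of -0.08 (-0.26 to 0.10). Within the gene, the region at 4.93 kb had 358 and 248, a ratio of 0.05 (-0.19 to 0.29), and the one at 10.40 kb 367 and 234 and a ratio of -0.07 (-0.31 to 0.17). Over the locus, 3456 and 2089 fragments gave a gene-level ratio of -0.15 (-0.22 to -0.07), which without the shift was 0.0047. The regions of the CREBfl/fl list alone were all inside the gene, with pileups of 100 to 143 at 1.54 to 2.51 times the local background. Both sequences with the interval below 0 are shown, the promoter first; capitals mark the RUNX word, AACCACA on this strand in both.
Ccr7 -0.16 kb, chr11:99155139-99155339: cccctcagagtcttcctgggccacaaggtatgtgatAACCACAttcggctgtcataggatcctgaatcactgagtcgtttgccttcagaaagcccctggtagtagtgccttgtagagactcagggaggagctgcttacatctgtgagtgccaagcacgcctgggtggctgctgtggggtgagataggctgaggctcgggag
Ccr7 +18.49 kb, chr11:99136483-99136683: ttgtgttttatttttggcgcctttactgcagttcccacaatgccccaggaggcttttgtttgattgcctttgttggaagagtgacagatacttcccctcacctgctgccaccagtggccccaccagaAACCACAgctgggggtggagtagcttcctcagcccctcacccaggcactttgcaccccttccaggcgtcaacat

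*S1pr1* (chr3:115710433-115715072, minus strand), the egress receptor under KLF2, had 13 regions, 10 shared and 3 in the CREBfl/fl list alone. Its start-site region had 542 and 340 fragments at the summit, a ratio of -0.09 (-0.29 to 0.11). Those about 1 kb to either side of the start had ratios of opposite sign, the lowest and the highest of the locus. A shared region 0.36 kb upstream, between the start-site region and the upstream one, had an interval that included 0. The region 1.01 kb upstream had 239 and 117, a ratio of -0.45 (-0.78 to -0.12), and the one 1.00 kb downstream, in the intron, had 120 and 109, a ratio of 0.44 (0.05 to 0.83). These counting intervals do not overlap, although both regions lie about as far from the start site. Both were picked as the extremes of 10 shared regions, and counting intervals leave out the spread between regions. Among all shared regions with a CREBfl/fl pileup of 100 to 200, the SD of the ratio was 0.29, against a median counting SD of 0.20. Without the shift the upstream ratio was -0.30 (-0.63 to 0.02) and the intronic 0.59 (0.20 to 0.98).

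Summed over the locus the differences of *S1pr1* cancelled: 2150 and 1400 fragments gave a gene-level ratio of -0.04 (-0.14 to 0.06), and 0.11 (0.01 to 0.21) without the shift. The upstream region lies in the long non-coding gene *Gm9889* on the other strand. Its sequence comes first below, with an AP-1 word in capitals, and that of the intronic region second, with the KLF word CCACACCC.
S1pr1 -1.01 kb, chr3:115715985-115716185: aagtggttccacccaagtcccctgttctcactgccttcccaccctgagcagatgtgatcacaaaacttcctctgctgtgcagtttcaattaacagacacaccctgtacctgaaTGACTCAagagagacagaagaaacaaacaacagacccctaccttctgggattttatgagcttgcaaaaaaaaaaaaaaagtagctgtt
S1pr1 +1.00 kb, chr3:115713975-115714175: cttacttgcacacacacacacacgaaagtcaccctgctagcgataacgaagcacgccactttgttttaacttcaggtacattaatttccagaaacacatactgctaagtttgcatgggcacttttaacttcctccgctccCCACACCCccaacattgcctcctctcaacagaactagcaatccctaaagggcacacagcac

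*Il7r* (chr15:9505788-9530176, minus strand) had 10 regions, 8 shared, none in the CREBfl/fl list alone and 2 in the Foxp3creCREBfl/fl list alone, while each of the other 6 genes had 3 or more in the CREBfl/fl list alone. Those of the Foxp3creCREBfl/fl list alone lay 2.63 kb inside the gene, with a pileup of 58 at 1.91 times the local background, and 2.97 kb upstream, with 87 at 2.18 times. The start-site region reached 344 and 203 fragments, for a ratio of -0.18 (-0.44 to 0.07), and the tallest, in the intron at 1.47 kb, 626 and 359 and a ratio of -0.22 (-0.41 to -0.03). Of the 8 shared regions, 4 had a ratio above 0, and not all of these were upstream of the gene. The highest ratio of the locus, 0.65, was in a shared region not upstream, with an interval that included 0. Both shared regions upstream of the gene were above 0. The region at 3.65 kb upstream had 538 and 386, a ratio of 0.10 (-0.09 to 0.29), and the region at 5.57 kb upstream 257 and 222 and a ratio of 0.37 (0.10 to 0.63).

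The counting intervals of the region 5.57 kb upstream and of the intronic one do not overlap. Both are named because their intervals lay off 0, and the difference between them was not tested. The gene-level ratio, from 2184 and 1458 fragments, was -0.0023 (-0.10 to 0.09), and 48.6% of genes had a lower one. Without the shift it was 0.15 (0.05 to 0.24), and over the gene body alone, without the flanks, -0.14 (-0.27 to -0.02). The far upstream region, the one of *Il7r* with an interval above 0, is shown with its AP-1 word TGACTCA in capitals.
Il7r -5.57 kb, chr15:9535305-9535505: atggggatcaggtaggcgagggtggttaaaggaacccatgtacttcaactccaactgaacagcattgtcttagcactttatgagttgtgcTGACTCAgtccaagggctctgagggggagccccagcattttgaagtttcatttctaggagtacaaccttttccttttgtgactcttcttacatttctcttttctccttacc

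**Figure D3:**
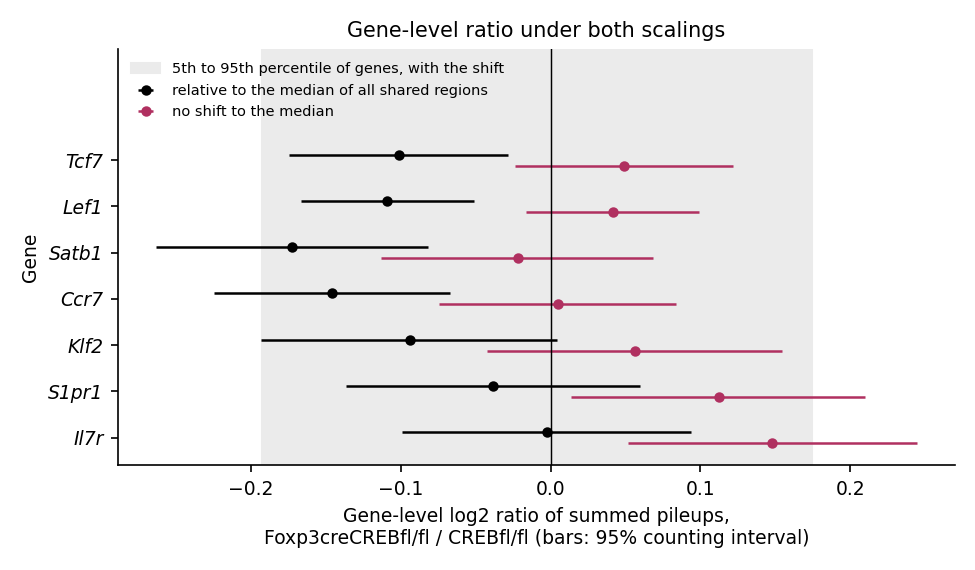
Gene-level log2 ratio of summed pileups of the shared regions, Foxp3creCREBfl/fl over CREBfl/fl (horizontal axis), for each gene (vertical axis), with 95% counting intervals. Black is relative to the median of all shared regions, red is without that shift, and the grey band runs from the 5th to the 95th percentile of 8828 genes (-0.19 to 0.17). All black points lie in the band, and without the shift *Satb1* is the 1 gene whose point is below 0.

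Side by side, the gene-level ratios went from *Satb1* at -0.17 and *Ccr7* at -0.15 over *Lef1*, *Tcf7*, *Klf2* and *S1pr1* to *Il7r* at -0.0023. Neighbours in this order had overlapping intervals. The interval was below 0 for 4 genes (*Tcf7*, *Lef1*, *Satb1* and *Ccr7*) and for no gene above 0, against 14.2% and 10.1% of all genes with at least 4 shared regions. These shares are not matched for summed pileup, on which the width of the interval depends. Without the shift no interval was below 0 and 2 were above it, those of *S1pr1* and *Il7r*. The split between transcription factors and receptors did not fully order the genes, since the receptor gene *Ccr7* lay between *Satb1* and *Lef1*. The transcription factor genes all lay below the receptor genes *S1pr1* and *Il7r*, and an order by this split was not tested.

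Regions of 1 list were more frequent at these genes on the CREBfl/fl side. Of the 132 joined regions with a CREBfl/fl peak, 39 had no counterpart, or 29.5%, against 16.8% of all such regions. Of the 99 with a Foxp3creCREBfl/fl peak, 6 had none, or 6.06%, against 7.07%. The 39 were weak, with pileups of 27 to 180 and a median -log10 q of 7.95, while the median pileup of the 93 shared regions was 171 and their median -log10 q 54.0. Among regions with a -log10 q under 20, 37 of 64, or 57.8%, had no counterpart, against 41.2% of all regions that weak.

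The regions of the CREBfl/fl list alone were most numerous at *Lef1* with 15 and *Satb1* with 9, followed by *Ccr7* with 5, *Klf2* with 4, and *Tcf7* and *S1pr1* with 3 each. Without *Lef1* the share was 26.4%. Many lay beside regions of the other list: 18 of the 39 were within 500 bp of a Foxp3creCREBfl/fl region. All 39 would have reached the lowest -log10 p of the Foxp3creCREBfl/fl list, 3.22, with pileup and background both multiplied by 0.669. This factor combines the difference in depth with the shift by the median, and the depth alone was not tried for -log10 p. Of the 39, 10 had a -log10 q of at least 10. The part that the depth of the lists has in these counts was not tested further. The highest by -log10 q, 20.4, was *Tcf7* at 1.73 kb, with a pileup of 143 at 2.56 times its local background.

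**Figure D4:**
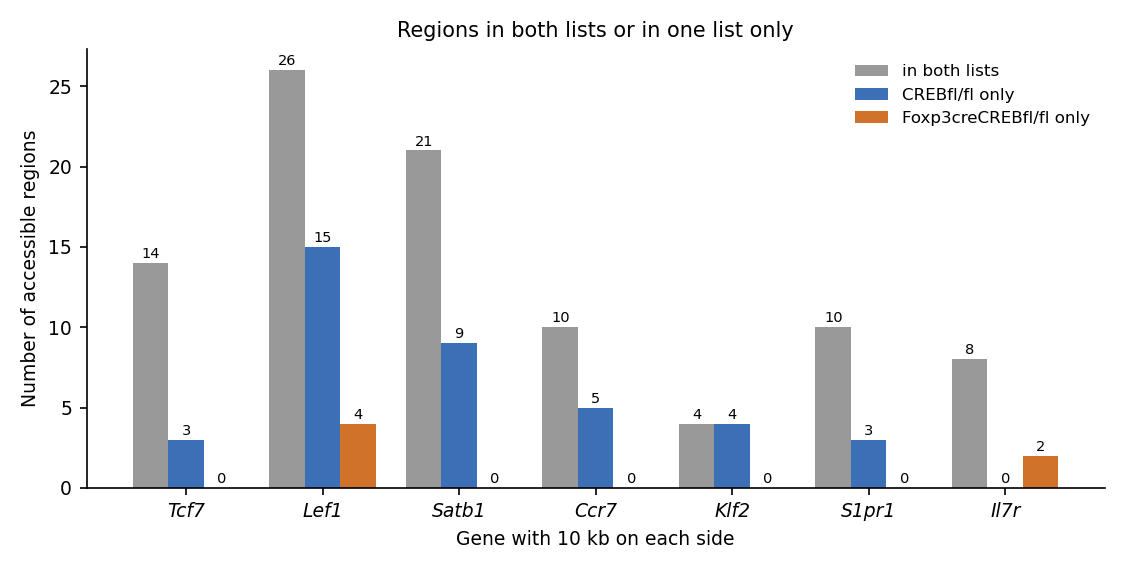
Number of accessible regions (vertical axis) in the window of each gene (horizontal axis), in both lists (grey), in the CREBfl/fl list alone (blue) or in the Foxp3creCREBfl/fl list alone (orange). *Lef1* has the most in each class (26, 15 and 4), and *Il7r* alone has none in blue.

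The 6 regions of the Foxp3creCREBfl/fl list alone were at *Lef1* and *Il7r*. At *Lef1*, a pair 4.56 and 3.75 kb upstream with pileups of 42 and 60 flanked a shared region at 4.29 kb upstream, which had a ratio, from pileups of 215 and 157, of 0.13 (-0.18 to 0.43). Those at 23.82 and 72.25 kb had pileups of 21 and 20. With joining by a reciprocal overlap of 50% the count was 26, since regions that differ in length then lose their counterpart, and with a -log10 q of at least 10 it was 0.

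Words of transcription factors known for this program were searched on both strands of the window from 100 bases before to 100 after each summit. The TCF/LEF word CTTTGAA, or its form with a final T, was in 14 of 138 member windows, or 10.1%, against 8.81% of all 104845. These windows were at *Lef1* (6), *Satb1* (4), *Tcf7* (2) and *S1pr1* (2). The forkhead word TGTTTAC, recognised by FOXO1, which supports *Klf2*, *Ccr7* and *Il7r* in T cells, was in 6, or 4.35% against 3.02%, all at *Lef1* and *Satb1*. The KLF word GGGTGTGG, or its form with C as the fourth base, was in 5, or 3.62% against 4.64%, of which 2 each were at *Klf2* and *S1pr1*. The RUNX word TGTGGTT was in 9.42% of member windows, against 9.87% of all windows. The ETS word AGGAAGT was in 13%, against 15.1% of all windows. For AP-1, with the word TGACTCA or its form with a middle G, the shares were 7.97% and 8.36%. The GATA word AGATAA was in fewer member windows, 5.07% against 9.69%. The STAT word TTCNNNGAA was also in fewer, 2.9% against 6.6%.

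The CRE TGACGTCA was in 0.725% of member windows, against 0.791% of all. Its 5-base core TGACG, which the CRE contains, was in 16, or 11.6% against 12.2%, and 8 of these 16 were at *Lef1*. A word is a match of letters and says nothing of binding here.

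Further genes of naive and central T cells were set beside the members. In that list of 12 genes, 6 gene-level intervals were below 0 and none above, with a median ratio of -0.09, while without the shift 1 was below 0 and 3 were above. The 1 below was *Bach2*, a repressor of effector programs, with 92 regions and a ratio of -0.25 (-0.29 to -0.21). *Nsg2*, a marker of recently formed T cells, had -0.21 (-0.28 to -0.14), and *Actn1* -0.14 (-0.26 to -0.02). By contrast, *Id3* and *Cd27* had 0.06 (-0.03 to 0.15) and 0.01 (-0.07 to 0.09). The 6 of 12 stand beside 14.2% of all genes with the interval below 0, a share that is not matched for summed pileup.

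Genes that act with the members had ratios on both sides of 0, and the counts turned with the scaling. Without the shift, intervals below and above 0 numbered 0 and 3 for the partners of TCF1 and LEF1, 1 and 2 for the forkhead genes, 1 and 2 in IL-7 signalling, 0 and 5 for the KLF family and quiescence, and 0 and 6 for homing and egress. With the shift, among 6 paralogues and partners of TCF1 and LEF1, 3 intervals were below 0 and none above: *Tcf7l2* had -0.20 (-0.30 to -0.10), *Tcf7l1* -0.11 (-0.21 to -0.02) and the corepressor *Tle3* -0.09 (-0.16 to -0.02). Of the forkhead genes that regulate naive T cells, *Foxp1* had -0.20 (-0.23 to -0.17) over 137 regions, and *Foxo1* -0.02 (-0.08 to 0.04). In IL-7 signalling 3 of 5 were below 0, *Stat5b* at -0.22 (-0.27 to -0.17), *Jak3* at -0.11 (-0.21 to -0.01) and *Jak1* at -0.07 (-0.12 to -0.02). Of 7 genes of the KLF family and quiescence, *Btg2* and *Tob1* were below 0, at -0.12 (-0.21 to -0.03) and -0.10 (-0.18 to -0.01). Of 8 genes of homing and egress, *S1pr4* was below 0 at -0.17 (-0.25 to -0.09), and *Cxcr4* and *Itgae* were above 0 at 0.14 (0.01 to 0.27) and 0.11 (0.04 to 0.19).

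Transcription factors of effector Tregs, the state in which the program is turned down, had a median gene-level ratio of 0.03 over 7 genes, with 2 intervals below 0 and 1 above, and 0 below and 5 above without the shift. *Id2*, which restrains E proteins, had 0.11 (0.03 to 0.20), *Rora* -0.09 (-0.14 to -0.04) and *Batf* -0.10 (-0.19 to -0.0036). The 6 markers examined for Tregs, *Cd4* and *Cd3e* among them, had a median of -0.10, with 3 intervals below 0 and 1 above, and 2 and 2 without the shift. Among them *Foxp3* had -0.25 (-0.32 to -0.18), *Ctla4* -0.21 (-0.27 to -0.15) and *Il2ra* -0.14 (-0.21 to -0.08), so ratios as low as those of the members were also found there. Of the regions with a CREBfl/fl peak, the share in that list alone was 29.5% at the members, 17.2% for the other naive and central genes, 18.2% for the effector factors, 20.4% for the Treg genes, 27.6% for the partners of TCF1 and LEF1 and 27.3% for markers of CD8 and NK cells, against 16.8% of all regions. The difference between the members and these lists was not tested, since there is 1 list per group and the genes are not replicates.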

How the data were processed

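ATAC-seq libraries of splenic Tregs, 3 per group by the labels, were sequenced as 75 bp pairs. The methods speak of sequencing in duplicate, and which libraries entered each list is not given in the sources used here. The authors used Trim Galore for trimming, Bowtie2 for alignment, SAMtools for a quality filter after duplicate removal, and MACS2 for peaks. Their versions: not given in the sources used here. The deposited lists, 1 per group, hold for each peak a score, a ratio (fold of summit pileup over background), p-values and q-values as -log10 from a Poisson model, and the summit position. Score and fold were not used to rank genes.

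Positions were read as GRCm38, although the methods name mm9: 0 regions lay past a chromosome end, and 7 of 7 member start sites had a CREBfl/fl peak within 1 kb, while 2 of 7 did once the sites were moved 100 kb. The total read depth is not given. Summit pileup and its background were recovered from fold and -log10 p, within 0.002, for 99.94% and 99.97% of peaks, and the 59 and 24 others have no ratio. The methods describe peak calling that ignores local background, while 32.6% and 29.7% of peaks carried the genome-wide value and all others exceeded it.

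Peaks were joined by an overlap of at least 1 bp, and the highest pileup was taken where several were joined. Ratios have exact conditional binomial 95% intervals, which cover counting error only, and neighbouring summits of a gene-level sum may share fragments. The comparison was tested on simulated data. Annotation was GENCODE vM21, and sequences are from the RefSeq GRCm38.p6 genome, printed without bases in annotated exons of coding transcripts' coding or untranslated parts. Of 7 TCF/LEF partners 6 were found by name. Described are the tallest and CRE-holding regions, those with an interval off 0, and start-site and group-only regions, though not each of these singly. Of each list, up to 3 genes with the largest differences and an interval off 0 are described. *Id3*, *Cd27* and *Foxo1* were named after their values were seen. The members and lists were chosen with earlier results of these data known, and the alternatives without *Lef1*, by weak -log10 q and by the depth of the other list were chosen after seeing the data. Analyses used Python 3.11.15, numpy 2.4.6, pandas 2.3.3, scipy 1.17.1 and matplotlib 3.10.9.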

Additional observations from a re-analysis of the deposited data

How the results depend on the processing

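The gene-level ratios depended on the scaling. Without the shift by the median, *Tcf7* (0.0491), *Lef1* (0.0413), *Ccr7* (0.0047), *Klf2* (0.0562), *S1pr1* (0.11) and *Il7r* (0.15) changed sign, and *Satb1* (-0.0221) moved toward 0. In this setting 1 member region had an interval below 0 and 7 above. With the authors' fold over the local background, *Tcf7* (0.0054), *Klf2* (0.0674) and *S1pr1* (0.0321) changed sign, and *Lef1* (-0.0512), *Satb1* (-0.0164) and *Ccr7* (-0.0260) moved toward 0. The sum of all summits moved *Satb1* to -0.37 and the start-site regions of *Satb1* and *Tcf7* to -1.01 and -0.79, and the gene body alone moved *Il7r* to -0.14. Regions of the CREBfl/fl list alone numbered 10 with a -log10 q of at least 10 and 24 without *Lef1*. Regions of the Foxp3creCREBfl/fl list alone numbered 26 with a reciprocal overlap of 50%, 0 with a -log10 q of at least 10, 3 over gene bodies and 2 without *Lef1*. Leaving out the shift adds the same 0.15 to every ratio. In the sum of all summits, 2 CREBfl/fl peaks were set against 1 of the other list at the start-site regions of *Satb1* and *Tcf7*. Beyond this, the cause of these moves was not tested. No paired analysis was possible because each group has 1 pooled list, and for the same reason no library could be left out.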
